A study of Rattus norvegicus with 9 samples.

Results

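Immediate early genes are the genes that neurons switch on first after a burst of activity. Calcium entering through glutamate receptors and voltage-gated channels activates kinases that phosphorylate transcription factors already present on the promoters, among them CREB and SRF, so transcription starts without new protein synthesis. The messages are short-lived, and in the hippocampus they are widely used as a mark of recently active cells. Described here are 7 such genes, chosen by their Ensembl identifiers: the transcription factor genes Fos, Fosb, Junb, Egr1, Nr4a1 and Npas4, and Arc, which encodes a postsynaptic protein. The list was fixed by identifier, and all 7 were among the 32545 identifiers in the count tables and had a mean above 1 CPM (reads scaled to the size of the library).

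The messenger RNA came from dorsal hippocampus of 9 male rats of the outbred Sprague-Dawley stock, aged 8 weeks. Of these, 4 had control rearing and 5 had been exposed to early-life adversity (ELA), and none had undergone behavioural testing. Each rat gave 1 library. The labels do not give the form of adversity, the litter, or how the rats were handled before tissue was taken, and each rat was treated as independent. Tissue was sequenced in bulk, so fewer expressing cells and less message per cell cannot be told apart in any value below.

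Between 11049282 and 17089188 reads per library were assigned to genes. With every library, 6 of 14463 genes passed the test between rearing groups. Among fits that left out 1 library, most genes, 130, passed without control replicate 1. At an unadjusted edgeR p under 0.05 there were 1929 genes without control replicate 1, 1875 without ELA replicate 4 and 1360 with every library. How far each library lay from the others was not measured. Control replicate 1 held neither the highest nor the lowest value of any of the 7 genes. Tissue and cell type markers were not examined, because 0 of the identifiers could be paired with a symbol by the gene table used here.

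The promoters are shown first, with the elements of CREB and SRF found close to the transcription start. RefSeq (assembly GRCr8) held a window of 300 bases, from 250 before to 50 after the start, for 5 of the 7 genes. Fos and Arc had no entry. The windows are at chr18:26736828-26737127 (plus strand) for Egr1, chr19:40080876-40081175 (plus strand) for Junb, chr7:134259888-134260187 (plus strand) for Nr4a1, chr1:88089135-88089434 (minus strand) for Fosb and chr1:211716053-211716352 (minus strand) for Npas4. These positions do not apply to rn6, the build of the count tables. Each window is written 5′ to 3′ along its gene. Capitals mark the core of the cyclic AMP response element bound by CREB, TGACG or its reverse complement CGTCA, and the CArG box bound by SRF.
Egr1: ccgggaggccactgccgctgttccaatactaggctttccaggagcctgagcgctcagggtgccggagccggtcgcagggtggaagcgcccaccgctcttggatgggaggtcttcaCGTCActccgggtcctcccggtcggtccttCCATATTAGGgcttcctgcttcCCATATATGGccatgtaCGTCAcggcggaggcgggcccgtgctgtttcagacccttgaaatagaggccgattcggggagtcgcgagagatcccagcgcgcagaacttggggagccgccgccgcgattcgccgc
Junb: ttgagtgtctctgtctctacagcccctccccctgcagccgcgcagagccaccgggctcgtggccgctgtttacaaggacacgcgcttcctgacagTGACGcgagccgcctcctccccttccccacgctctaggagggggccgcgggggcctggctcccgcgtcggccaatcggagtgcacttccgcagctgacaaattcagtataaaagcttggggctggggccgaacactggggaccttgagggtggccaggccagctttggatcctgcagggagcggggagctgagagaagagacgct
Nr4a1: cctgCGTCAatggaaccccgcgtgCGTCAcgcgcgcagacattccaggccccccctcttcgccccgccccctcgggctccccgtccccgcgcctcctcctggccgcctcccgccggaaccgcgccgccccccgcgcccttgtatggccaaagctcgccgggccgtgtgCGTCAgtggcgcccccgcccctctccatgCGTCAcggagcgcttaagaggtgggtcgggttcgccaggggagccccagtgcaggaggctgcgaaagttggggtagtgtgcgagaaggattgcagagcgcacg
Fosb: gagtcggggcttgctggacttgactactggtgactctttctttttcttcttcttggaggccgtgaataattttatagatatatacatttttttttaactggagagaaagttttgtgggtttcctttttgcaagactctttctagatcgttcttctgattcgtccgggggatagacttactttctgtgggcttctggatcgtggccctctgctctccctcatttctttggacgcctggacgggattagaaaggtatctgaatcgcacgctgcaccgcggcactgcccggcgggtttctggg
Npas4: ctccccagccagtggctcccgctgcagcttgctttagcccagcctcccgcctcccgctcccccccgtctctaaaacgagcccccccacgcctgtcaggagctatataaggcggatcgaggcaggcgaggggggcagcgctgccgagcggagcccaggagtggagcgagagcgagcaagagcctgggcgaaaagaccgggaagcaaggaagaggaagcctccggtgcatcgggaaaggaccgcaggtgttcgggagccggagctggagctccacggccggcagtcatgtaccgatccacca

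The CRE core was found once in the Junb window, at 155 bases before the start. Egr1 held it at 135 and 66 bases before the start, and Nr4a1 at 246, 226, 82 and 53 bases before it. The windows of Fosb and Npas4 held 0 matches. The same 5 letters occurred on either strand in 21.2% of 33469 rat promoter windows of equal length, so a single match is common. The full element TGACGTCA, which contains the core on both strands, was in 0 of the 5 windows and in 1.83% of all. CArG boxes occurred only in the Egr1 window among these 5, at 105 and 83 bases before the start, against 1.64% of all windows with at least 1. A site for the Egr family itself, GCGNGGGCG, lay 73 bases before the start of Nr4a1, on the strand opposite to the gene (4.98% of all windows). The TATA motif, searched as TATAA on either strand, was found in Junb, Fosb and Npas4. It lay 49, 179 and 147 bases before the start (26.2% of all windows). In Fosb the match was on the opposite strand only, so that window as printed holds its reverse complement. These matches are letters in a window and not measured binding, and elements farther away were not searched. The starts are those given by RefSeq, and whether they are the starts used in these rats was not tested.

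The first comparison asked whether the level of these genes in adult hippocampus differed with rearing history. None of the 7 passed the test. At an adjusted p under 0.05, 0 members were called, where 0.0415% of all 14463 genes were (edgeR quasi-likelihood test, Benjamini-Hochberg adjustment over all genes). The DESeq2 test called 0 members and 0.980% of all genes, and limma-voom with sample weights 0 members and 2.11% of all genes. In 6 of the genes ELA rats had the lower mean, in Fosb the higher, and the median log2 fold change of the 7 was -0.19, against 0.0035 over all genes. An unadjusted p under 0.05 was found for Npas4 and Fos, 2 of 7 members, against 9.40% of all genes by edgeR. Control and ELA rats overlapped in each of the 7 genes, as they did in all but 3.04% of all genes. The members share their libraries and, as shown further on, several moved together, so their directions are not separate observations.

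**Figure D1:**
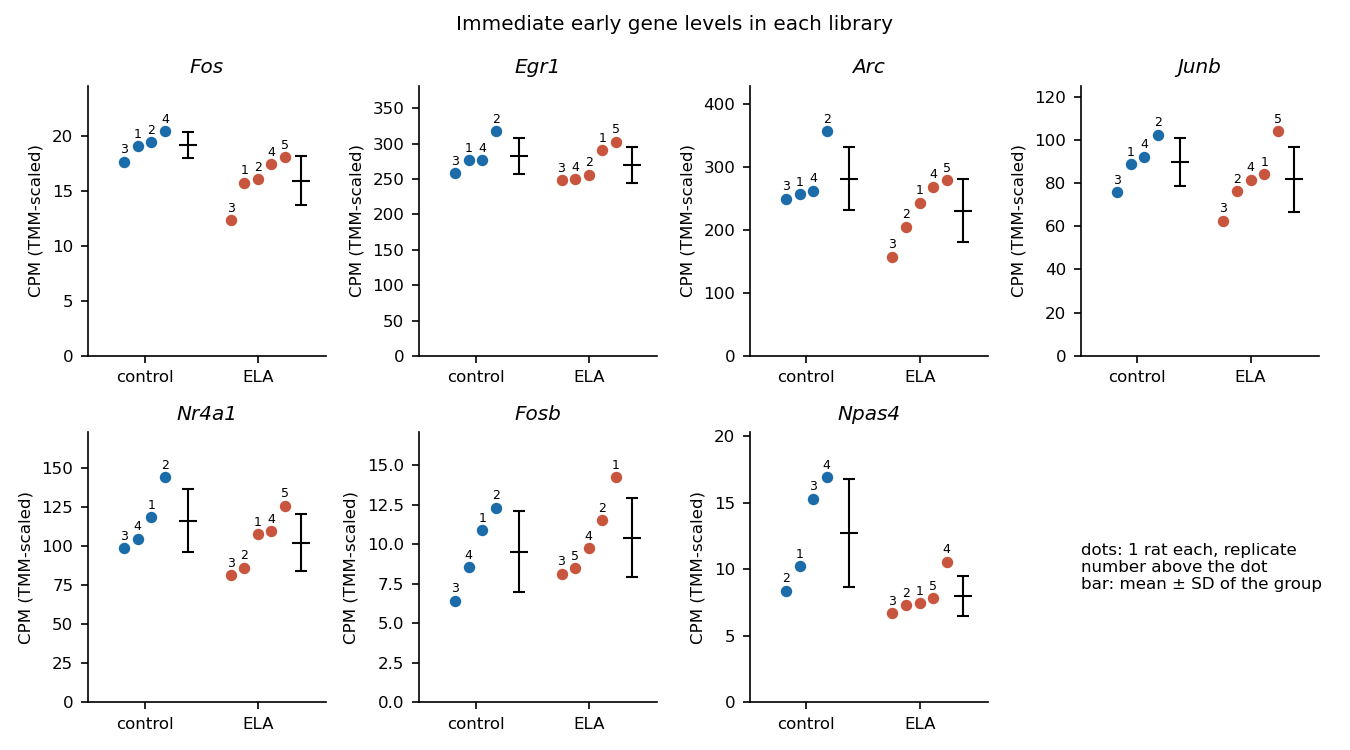
Level of each gene in every rat, as CPM scaled by TMM library factors, for control rats (blue) and ELA rats (red); each dot is 1 rat with its replicate number, and the bar is the group mean with its SD (n = 4 and 5). The groups overlap in every panel; ELA replicate 3 is the lowest dot of all 9 in each panel except Fosb.

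Fos, Fosb and Junb encode parts of AP-1, a dimer of a Fos and a Jun protein. Fos (ENSRNOG00000008015) was at 19.0, 19.4, 17.6 and 20.4 CPM in control replicates 1 to 4, and at 15.7, 16.0, 12.3, 17.4 and 18.0 CPM in ELA replicates 1 to 5. Of the ELA rats, 4 lay below the lowest control, and ELA replicate 5 lay within the control range. Means were 19.1 ± 1.16 and 15.9 ± 2.22 CPM (SD, n = 4 and 5), and the log2 fold change was -0.27 ± 0.103 (standard error; edgeR adjusted p = 0.413). The 95% interval, -0.49 to -0.05, leaves out a fall of more than 1.41-fold. These levels rest on 180 to 296 reads per library, for which counting alone gives an error of 5.81 to 7.45%.

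Fosb, which also gives rise to the stable truncated protein deltaFosB that builds up with repeated stimulation, was the one member with a higher mean in ELA rats. Fosb (ENSRNOG00000046667) stood at 10.9, 12.3, 6.43 and 8.55 CPM in the control rats and at 14.2, 11.5, 8.14, 9.77 and 8.48 CPM in the ELA rats. Both groups covered much the same range, with the highest value in ELA replicate 1 and the lowest in control replicate 3. The log2 fold change was 0.14 ± 0.206 (standard error; edgeR adjusted p = 0.904), with a 95% interval of -0.31 to 0.60. Without either of those libraries the sign turned, to -0.0079 without control replicate 3 and -0.0038 without ELA replicate 1. Counts of whole genes do not tell the full-length and truncated messages apart.

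Junb (ENSRNOG00000042838), the Jun partner, was at 88.7, 102, 75.8 and 92.1 CPM in control rats and at 84.1, 76.1, 62.6, 81.5 and 104 CPM in ELA rats. The highest and the lowest of the 9 values were both in ELA rats, replicates 5 and 3. The log2 fold change was -0.14 ± 0.129 (standard error; edgeR adjusted p = 0.826), and the 95% interval reached from -0.42 to 0.15. The difference was -0.24 without ELA replicate 5, -0.07 without control replicate 2 and -0.05 without ELA replicate 3, and did not pass in any of these (edgeR adjusted p = 0.431, 0.963 and 0.952).

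Among the other transcription factors, Egr1, a zinc finger factor tied to lasting synaptic plasticity, had the narrowest interval. Egr1 (ENSRNOG00000019422) measured 276, 318, 258 and 277 CPM in control rats and 291, 256, 248, 250 and 303 CPM in ELA rats. Its means of 282 ± 25.3 and 270 ± 25.3 CPM (SD, n = 4 and 5) were closer than the SD of either group. The log2 fold change was -0.07 ± 0.078 (standard error; edgeR adjusted p = 0.878), and the 95% interval of -0.24 to 0.10 leaves out a fall of more than 1.18-fold. Without control replicate 2 the difference was -0.0037. At 2810 to 5003 reads per library, counting added at most 1.89% error.

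Nr4a1 encodes an orphan nuclear receptor, also called Nur77. Nr4a1 (ENSRNOG00000007607) was at 118, 144, 98.6 and 105 CPM in control rats and at 108, 86.2, 81.2, 110 and 126 CPM in ELA rats. Control replicate 2 was highest, and ELA replicates 2 and 3 lay below all controls. The log2 fold change was -0.19 ± 0.143 (standard error; edgeR adjusted p = 0.762), with a 95% interval of -0.51 to 0.13. Without control replicate 2 the difference was -0.07 and without ELA replicate 3 -0.12 (edgeR adjusted p = 0.960 and 0.911).

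Npas4, a factor induced by calcium entry in neurons and known for its control of inhibitory synapses, had the largest difference of the 7. Npas4 (ENSRNOG00000020009) was at 10.3, 8.39, 15.3 and 16.9 CPM in control rats and at 7.43, 7.31, 6.70, 10.6 and 7.81 CPM in ELA rats. Of the ELA rats, 4 lay below the lowest control, and ELA replicate 4 exceeded control replicates 1 and 2. Means were 12.7 ± 4.04 and 7.97 ± 1.51 CPM (SD, n = 4 and 5), and the log2 fold change was -0.69 ± 0.204 (standard error). This 1.61-fold lower level did not pass after adjustment (edgeR adjusted p = 0.276), and the 95% interval was -1.14 to -0.24. Control replicates 3 and 4 were the highest of the 9, and without either one the log2 fold change was -0.59 and -0.52 (edgeR adjusted p = 0.757 and 0.671). The lowest adjusted p over the 20 other settings and tests was 0.0796, by limma-voom with sample weights, and the log2 fold change stayed between -0.84 and -0.52. Between 94 and 245 reads per library carried this gene, a counting error of 6.39 to 10.3%.

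Arc differs from the others in that its product acts at the synapse, where it promotes removal of AMPA receptors. Arc (ENSRNOG00000043465) was at 257, 357, 250 and 262 CPM in control rats and at 243, 205, 158, 269 and 279 CPM in ELA rats. Control replicate 2 lay far above the other controls, and ELA replicates 1, 2 and 3 lay below all of them. Means were 282 ± 50.6 and 231 ± 49.9 CPM (SD, n = 4 and 5), and the log2 fold change was -0.29 ± 0.168 (standard error; edgeR adjusted p = 0.655), with a 95% interval of -0.66 to 0.09. The log2 fold change was -0.15 without control replicate 2 and -0.18 without ELA replicate 3 (edgeR adjusted p = 0.914 and 0.820).

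**Figure D2:**
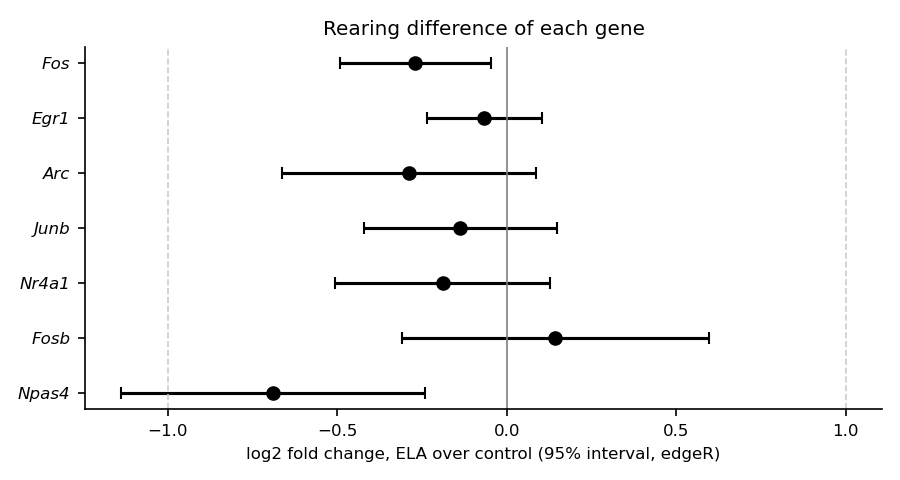
Log2 fold change of each gene, ELA over control, with its 95% interval from edgeR on 4 and 5 libraries; dashed lines mark a 2-fold change. The intervals of Fos and Npas4 lie below 0 before any adjustment for the number of genes, the other 5 include 0, and only that of Npas4 extends past a 2-fold change.

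Of the 7 intervals, each for 1 gene alone, 6 stayed inside a 2-fold and 4 inside a 1.5-fold change up or down, compared with 13772 and 11588 of all 14463 genes. Leaving out control replicate 1 moved the members little. Npas4 then had a log2 fold change of -0.78 (edgeR adjusted p = 0.125) and Fos one of -0.28 (edgeR adjusted p = 0.314), and again 0 members passed, against 0.893% of all genes.

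Rats of one group differed more in most of these genes than in the typical gene. The SD within groups on the log2 CPM scale had a median of 0.253 over the 7 members and of 0.147 over all genes tested. It was 0.364 for Fosb and 0.361 for Npas4, larger than for 89.7% and 89.4% of all genes. Arc followed at 0.300 (83.5%), then Nr4a1 at 0.253 (76.9%) and Junb at 0.232 (73.4%). Fos, at 0.171, was near the middle of all genes (58.5%), and Egr1, at 0.130, was below it (43.0%). These shares are over genes of every level, and the members were not ranked among genes of similar level. Counting error is part of each value and was largest for Fosb and Npas4, at most 10.4% and 10.3%. Their coefficients of variation were 27.2% and 31.8% among control rats and 24.0% and 19.0% among ELA rats. For Arc the coefficient was 18.0% in control and 21.6% in ELA rats, with at most 2.08% from counting.

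**Figure D3:**
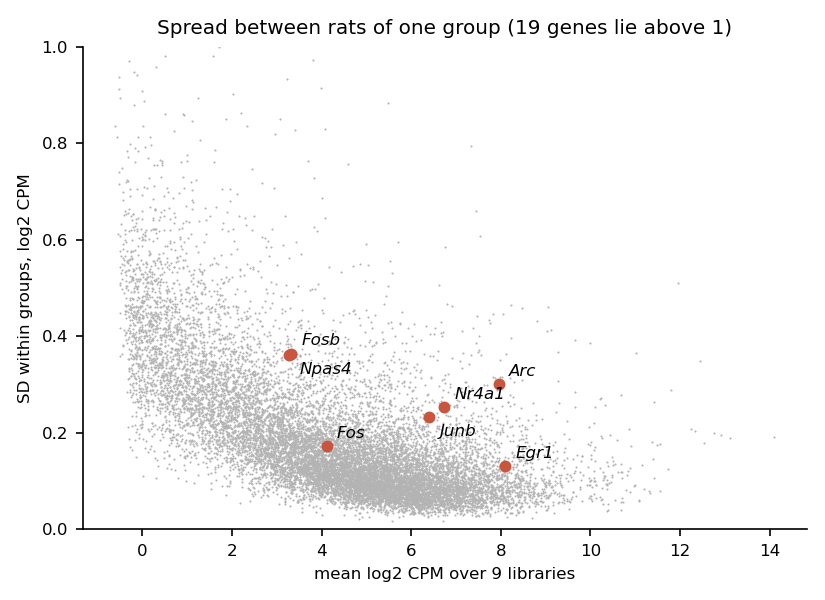
SD within rearing groups against mean level, both on the log2 CPM scale over 9 libraries, for each gene tested (grey) and the 7 members (red); 19 genes lie above the axis. Fosb and Npas4 nearly coincide at 0.364 and 0.361, and Arc, at 0.300, is the highest of the members with a mean log2 CPM above 4.

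The second comparison asked whether the 7 genes varied together from rat to rat. Some pairs did, and the median r over all 21 pairs was 0.518. Of the 21 pairs, 7 had a correlation over the 9 libraries that passed an adjusted p of 0.05 (Pearson's r of log2 CPM, two-sided exact permutation over all pairings, Benjamini-Hochberg over 21 pairs). All 7 lay among the 10 pairs of Fos, Egr1, Arc, Junb and Nr4a1, a set named after its values were seen; no test separates it from the other 2 genes. These 10 correlations ran from 0.518 to 0.929 with a median of 0.848. Over all 104581953 pairs of genes tested, the median r was -0.00115, 12.1% of pairs reached 0.518 and 0.741% reached 0.848. These shares are over genes of every level, and pairs of genes of similar level were not looked at alone.

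**Figure D4:**
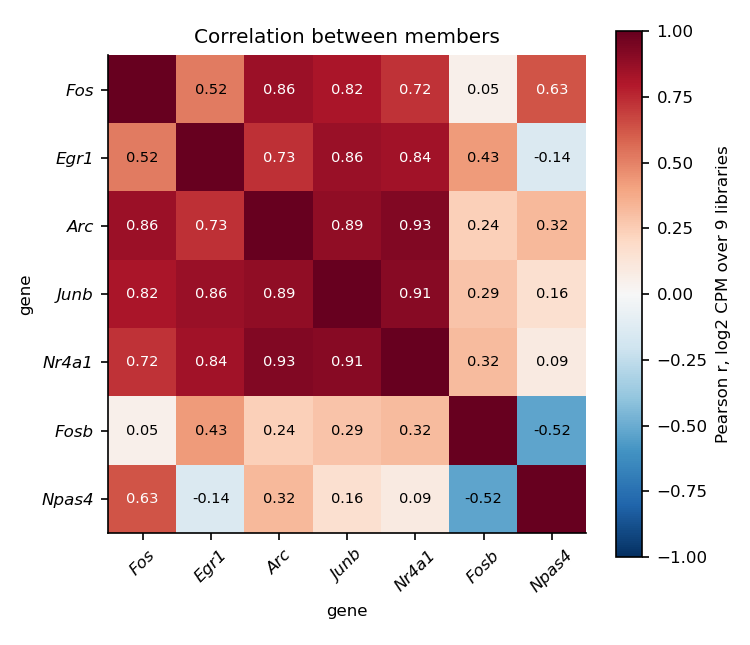
Pearson's r between each pair of the 7 genes, from log2 CPM over 9 libraries, on a colour scale from -1 to 1. The block of Fos, Egr1, Arc, Junb and Nr4a1 holds values from 0.518 to 0.929, and the rows of Fosb and Npas4 hold values from -0.52 to 0.63.

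The closest pair was Arc and Nr4a1, with r = 0.929 (exact permutation p = 0.000215, adjusted p = 0.00451) and rho = 0.883 (exact permutation p = 0.00308, adjusted p = 0.0425). Leaving out control replicate 2 and ELA replicate 3, the libraries farthest from the median of Arc, r was 0.867. Junb and Nr4a1 followed at r = 0.908 (exact permutation p = 0.00108, adjusted p = 0.0108) and rho = 0.850 (exact permutation p = 0.00607, adjusted p = 0.0425); r was 0.871 when the 2 libraries farthest on Junb were dropped. Egr1 and Junb reached r = 0.860 (exact permutation p = 0.00263, adjusted p = 0.0138) and rho = 0.867 (exact permutation p = 0.00451, adjusted p = 0.0425), and 0.822 without the farthest 2. Leaving out the 2 libraries farthest on the second gene of each pair instead, r was 0.867, 0.8155 and 0.852 in the same order. In these 3 pairs both measures passed.

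In the other 4 pairs r passed and the rank correlation did not. Arc and Junb had r = 0.887 (exact permutation p = 0.00154, adjusted p = 0.0108) and rho = 0.817 (exact permutation p = 0.0108, adjusted p = 0.0565). For Fos and Arc r was 0.858 (exact permutation p = 0.00531, adjusted p = 0.0186) and rho 0.750 (exact permutation p = 0.0255, adjusted p = 0.0892). Egr1 and Nr4a1 gave r = 0.839 (exact permutation p = 0.00457, adjusted p = 0.0186) with the same rho and p. Fos and Junb, which can form AP-1 together, gave r = 0.820 (exact permutation p = 0.00718, adjusted p = 0.0215) and rho = 0.733 (exact permutation p = 0.0311, adjusted p = 0.0934). Without the 2 libraries farthest on the first gene of each pair, r was 0.683, 0.773, 0.655 and 0.628 in the same order. Without the 2 farthest on the second gene, it was 0.834, 0.599, 0.655 and 0.709.

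The 11 pairs with Fosb or Npas4 ran from -0.525 to 0.628 with a median of 0.241. None of them passed by r, and 0 had an unadjusted exact permutation p under 0.05; by rank correlation 1 did, and none passed after adjustment. The highest was Fos with Npas4, above the 0.518 of Fos with Egr1, at r = 0.628 (exact permutation p = 0.0661, adjusted p = 0.139) and rho = 0.717 (exact permutation p = 0.0369, adjusted p = 0.0968). On 7 libraries, r was 0.314 leaving out those farthest on Fos and 0.687 leaving out those farthest on Npas4. In deviations from the group means it was 0.303. The lowest was Fosb with Npas4, at r = -0.525 (exact permutation p = 0.152, adjusted p = 0.266) and rho = -0.250 (exact permutation p = 0.521, adjusted p = 0.607), and r was -0.156 without the 2 libraries farthest on Fosb and 0.066 without those farthest on Npas4. Fosb was lowest in control replicate 3, the rat with the second highest Npas4.

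**Figure D5:**
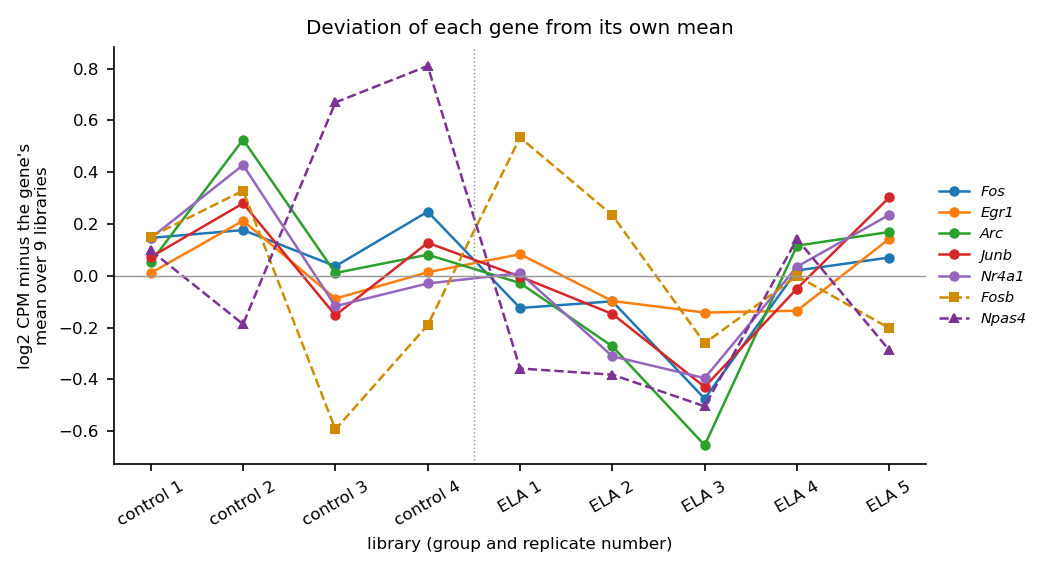
Log2 CPM of each gene minus its own mean over 9 libraries, for each library; lines only join the points of 1 gene, and the dotted line parts control from ELA rats. Fos, Egr1, Arc, Junb and Nr4a1 (solid) are all above their mean in control replicates 1 and 2 and ELA replicate 5. All are below it in ELA replicates 2 and 3. Of the dashed lines, Npas4 is below its mean in control replicate 2, Fosb is above in ELA replicate 2, and both are below in ELA replicate 5. In control replicates 3 and 4 Fosb is below its mean and Npas4 above.

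The shared variation did not follow the rearing groups alone. Taking out the group means left the median r of the 10 pairs at 0.836, and 4 of the 21 pairs passed when libraries were exchanged within groups only (exact permutation). Control replicate 2 held the highest value of Egr1, Arc and Nr4a1 and was among the highest 2 libraries for 6 of the 7 genes. ELA replicate 3 held the lowest value of 6 genes and was among the lowest 2 for all 7. Without ELA replicate 3 the median r of the 10 pairs was 0.730 and 3 pairs passed. Without both libraries, a choice made after seeing the data, it was 0.627 over 7 libraries, and 0 pairs passed while 3 had an unadjusted exact permutation p under 0.05. In that fit the log2 fold changes of Egr1, Junb and Nr4a1 were 0.024, 0.015 and 0.0013, and that of Arc was -0.04. Without control replicate 1 the median r was 0.857 and 7 pairs passed.

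The genes were also set against 6 measures of the libraries. The share of reads taken by the 10 most abundant genes, 5.94 to 8.79%, had positive r with Fos, Egr1, Arc, Junb and Nr4a1, from 0.527 with Egr1 (exact permutation p = 0.145) to 0.769 with Junb (exact permutation p = 0.0153). With Npas4 r was 0.229 (exact permutation p = 0.550), and with Fosb it was -0.182 (exact permutation p = 0.641). For Egr1 and Junb rho was 0.533 (exact permutation p = 0.148) and 0.717 (exact permutation p = 0.0369); with the 2 libraries farthest on that share removed, r was 0.361 and 0.638. The number of reads assigned to genes had negative r with Arc (-0.379, exact permutation p = 0.306; rho = -0.767, exact permutation p = 0.0214). With the 2 libraries farthest on depth removed, its r was -0.630 with Arc, -0.746 with Egr1, -0.757 with Junb and -0.815 with Nr4a1. Over all 9 libraries r with depth was 0.064 for Egr1, -0.308 for Junb and -0.391 for Nr4a1 (exact permutation p = 0.872, 0.422 and 0.297). Over 42 relations of the 7 genes with the 6 measures, 0 passed once adjusted (lowest adjusted p by exact permutation 0.641 for r, 0.347 for rho). The part of either measure in the co-variation was not tested.

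Outside the 7 genes, those most like them were sought by the mean of their 7 correlations over the 9 libraries, among 13900 genes with a mean of at least 1 CPM. The highest were ENSRNOG00000049115, at a mean r of 0.697, and ENSRNOG00000014718, at 0.692, which reached 0.950 with Arc and 0.936 with Nr4a1. The latter had r of only 0.248 with Fosb and 0.178 with Npas4, and its mean r was 0.565 without ELA replicate 3. The lowest were ENSRNOG00000002553 at -0.697 and ENSRNOG00000026953 at -0.680. The last of these ranged from 2.87 CPM in control replicate 2 to 11.2 CPM in ELA replicate 3, the reverse of Arc. These genes are the extremes of many and carry no p-value, and no source used here pairs them with a symbol.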

How the data were processed

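STAR 2.5.0, HTSeq 0.6.1 and the build rn6 are named in the submitters' processing notes. The sources used here do not state annotation release, strand setting or filters, so reads of overlapping or antisense genes may be joined or lost. The authors deposited 1 table of raw counts per rat. Its 5 summary entries that name no gene were left out; they held reads outside genes (15.2 to 18.1% of records), reads matching several genes (1.57 to 1.80%) and multiply aligned reads (14.3 to 21.1%).

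The test was edgeR 4.0.16 (R 4.3.3): filterByExpr left 14463 genes, TMM set the library factors, and a robust quasi-likelihood fit of the 9 libraries had rearing as its only term. Benjamini-Hochberg adjustment ran over all genes tested. CPM values use TMM-scaled library sizes. The standard error is the absolute log2 fold change divided by the square root of F. For correlations, CPM was put on the log2 scale (prior count 2). Counting errors cover sampling of reads only. Fits and correlations were tested on simulated data. Alternatives were other scalings, filters and tests (DESeq2 1.42.0, limma 3.58.1), blocks by number, and leaving out libraries.

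All 7 members are named; other genes are named by the rule of highest and lowest mean correlation. The members and lists were chosen with earlier results of these data known. Symbols of the members were given with their identifiers. Lists of other activity-induced genes and of cell type markers needed symbols, and 0 of 32545 identifiers could be matched, so they were not run. The numbers in the titles and in the descriptions are shared between groups, and the labels do not say what they mean. The libraries were therefore treated as unpaired.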

Additional observations from a re-analysis of the deposited data

Results flagged for a closer look

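Each of the 7 genes was checked in each rearing group, 14 sets in all, for a single rat far from the rest (Dixon's ratio of gap to range). Chance marks about 1 in 20 such sets, and 2 were found. Sets of the same group share their rats and are not independent. Arc was at 357 CPM in control replicate 2, while the next highest control was at 262 CPM. Npas4 was at 10.6 CPM in ELA replicate 4, while the next highest ELA rat was at 7.81 CPM. Without ELA replicate 4 the log2 fold change of Npas4 was -0.81 (edgeR adjusted p = 0.176).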

How the results depend on the processing

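No member passed an adjusted p of 0.05 with edgeR, DESeq2 or limma-voom, in any of the 20 alternatives run. Fos, Arc and Npas4 kept their lower mean in ELA rats in all 20. Egr1, Junb and Nr4a1 turned only without control replicate 2 and ELA replicate 3 together (0.024, 0.015 and 0.0013), and Fosb only without control replicate 3 or ELA replicate 1 (-0.0079 to 0.29 over the fits that left out 1 library). The number of genes called in the whole table was 6. It was 11 with no filter, 142 with the DESeq2 Wald test, 305 with limma-voom and sample weights, 1 with the replicate block by title number, 77 with the replicate block by description number, 2 to 130 with 1 library left out, and 1 without control replicate 2 and ELA replicate 3 together; the cause was not tested. The block by title number left out ELA replicate 5, and that by description number ELA replicate 1, because no control shared their numbers. In the replicate block by title number, 5 members had an unadjusted edgeR p under 0.05, as did 1588 of the 14400 genes tested, and 0 members passed after adjustment. With ELA replicate 5 left out and no block, these were 3 members and 1561 of 14400 genes. Rats of the same number deviated from their group means with correlations across genes of -0.107 to 0.253 by title number and -0.174 to 0.281 by description number, and not every rat was closest to its own number. The number of correlated pairs, 7, was 4 in deviations from the group means and 3 by Spearman's rho. With 1 library left out it was 3 to 8. It was 0 without control replicate 2 and ELA replicate 3 together, where fewer libraries enter. There the median r was 0.627 over the 10 pairs and 0.351 over all 21 pairs. At 92 to 296 reads per library, depth limits Fos, Fosb and Npas4 most.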
